A study of Mus musculus with 48 samples.

Results

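The 40 genes described here encode proteins that copy DNA or carry a cell through mitosis. They were chosen by gene name, with earlier results of these data known, and are 40 of the 36935 genes in the deposited count table. RNA was sequenced from mouse E14 embryonic stem cells and from 3 knockout lines made in them, which lacked KAT6A, KAT6B or both of these histone acetyltransferases. Each of the 4 genotypes was sampled on 4 days of a neuronal differentiation, with 3 libraries in each of the 16 groups and 48 libraries in all. Day 0 cells were stem cells kept in serum with LIF. Days 2 and 6 were embryoid bodies grown without LIF, and all-trans retinoic acid (10 µM) was given from day 4, so that day 6 had it and day 2 did not. For day 15, the bodies were dissociated on day 8 and the cells plated on poly-D-lysine and laminin in N2 and then B27 medium. Per the labels, the replicates came from 3 independent differentiation experiments. How the knockouts were made and how many clones stand for each genotype is not given in the sources used here, so the p-values measure the spread between cultures of these lines.

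A dividing cell first licenses its replication origins, when ORC, CDC6 and CDT1 load the MCM helicase, and then fires them, when CDC45 and the GINS complex switch the helicase on. Cyclins with their kinase partners time these steps, and PLK1, the Aurora kinases and the spindle checkpoint govern mitosis. Most of these genes are transcribed in waves: E2F factors act on many replication genes before S phase, and the MuvB complex acts through a CHR element on many mitosis genes before division. Mouse embryonic stem cells cycle fast with a short G1 phase, and neurons are postmitotic.

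Promoter sequences were examined because these 2 waves are tied to different short motifs. RefSeq (GRCm38.p6) gave a 300-base window, from 250 bases before to 50 bases after the start site, for 32 of the 40 genes. Ccna2, Aurkb, Pole, Mcm4, Gins2, Kif20a, Gins1 and Tpx2 had no entry. The motifs searched on both strands were the E2F type (TTTCCCGC, TTTCGCGC, TTTGCCGC or TTTGGCGC), the CHR type (TTTGAA or TTCGAA) and the CCAAT box (CCAAT). The stretches shown cover the 160 bases before the start site, written 5′ to 3′ along the gene. They are from Mcm5 and Mcm6 (2 subunits of the replicative helicase), Cdc6 (its loader), Ccne1 and Mki67 (the genes that fell most and least in E14), Cdk1 and Cdc20 (which drive entry into and exit from mitosis), and Top2a (which untangles chromosomes). Capitals mark matches to any of the 3 motifs on either strand.
Mcm5 (chr8:75109349-75109508, plus strand): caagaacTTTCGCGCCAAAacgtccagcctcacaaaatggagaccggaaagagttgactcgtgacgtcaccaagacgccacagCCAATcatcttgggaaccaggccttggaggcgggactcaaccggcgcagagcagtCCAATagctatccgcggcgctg
Mcm6 (chr1:128359706-128359865, minus strand): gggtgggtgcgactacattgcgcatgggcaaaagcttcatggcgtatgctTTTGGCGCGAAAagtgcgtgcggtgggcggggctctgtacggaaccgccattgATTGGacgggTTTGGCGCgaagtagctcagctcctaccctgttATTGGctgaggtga
Cdc6 (chr11:98907991-98908150, plus strand): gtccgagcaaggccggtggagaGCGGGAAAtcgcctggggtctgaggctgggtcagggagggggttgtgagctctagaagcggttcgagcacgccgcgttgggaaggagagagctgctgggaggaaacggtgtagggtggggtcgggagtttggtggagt
Ccne1 (chr7:38107491-38107650, minus strand): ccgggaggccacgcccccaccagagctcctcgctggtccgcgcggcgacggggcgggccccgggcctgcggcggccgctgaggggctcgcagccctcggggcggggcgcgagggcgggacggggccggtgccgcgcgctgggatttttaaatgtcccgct
Cdk1 (chr10:69352913-69353072, minus strand): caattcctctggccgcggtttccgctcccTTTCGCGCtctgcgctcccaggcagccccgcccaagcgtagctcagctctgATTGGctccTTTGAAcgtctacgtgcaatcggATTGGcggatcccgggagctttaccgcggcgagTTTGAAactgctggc
Cdc20 (chr4:118437344-118437503, minus strand): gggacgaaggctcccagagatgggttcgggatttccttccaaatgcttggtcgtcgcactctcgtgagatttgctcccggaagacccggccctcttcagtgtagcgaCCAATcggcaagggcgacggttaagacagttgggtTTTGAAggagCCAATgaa
Top2a (chr11:99024190-99024349, minus strand): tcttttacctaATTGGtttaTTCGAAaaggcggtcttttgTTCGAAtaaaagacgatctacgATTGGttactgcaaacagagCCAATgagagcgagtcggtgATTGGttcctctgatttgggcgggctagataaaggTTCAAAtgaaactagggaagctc
Mki67 (chr7:135716380-135716539, minus strand): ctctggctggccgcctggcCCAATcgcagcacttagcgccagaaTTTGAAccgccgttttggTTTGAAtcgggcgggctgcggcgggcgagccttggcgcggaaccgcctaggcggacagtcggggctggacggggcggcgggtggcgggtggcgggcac

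An E2F-type match was in the windows of 10 of 19 replication genes and 1 of 13 cyclin and mitosis genes, against 2.60% of all 27025 genes with an entry. That 1 gene was Cdk1. A CHR-type match was in 4 of the 19 replication genes and 10 of the 13 cyclin and mitosis genes, against 21.7% of all genes. CCAAT boxes were in 14 of the 19 and 11 of the 13, against 41.1% of all genes. In Mcm5 and Mcm6 the E2F-type matches overlapped on opposite strands, as the long capital runs show. The Ccne1 window held no match to these letters. These are matches of letters, not measured binding, and no test was made of them.

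In E14 cells these genes lost most of their RNA between day 0 and day 15, and their summed level lost more after day 6 than before it. The 10 origin licensing genes had a median of 51.9% of their day 0 level at day 6 and 17.4% at day 15. For all 40 genes those medians were 63.7% and 23.3%. The summed level of all 40, as counts scaled to library size by trimmed means (CPM), was 9887, 10154 and 10151 in the 3 day 0 libraries. It was 9440, 9936 and 9474 at day 2, then 6835, 6480 and 6303 at day 6, and 2093, 2621 and 2447 at day 15. The libraries of days 0 and 2 lay close together, those of day 6 lay below every one of them, and those of day 15 lay lowest. RNA from whole cultures cannot tell fewer cycling cells from less RNA per cell.

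**Figure D1:**
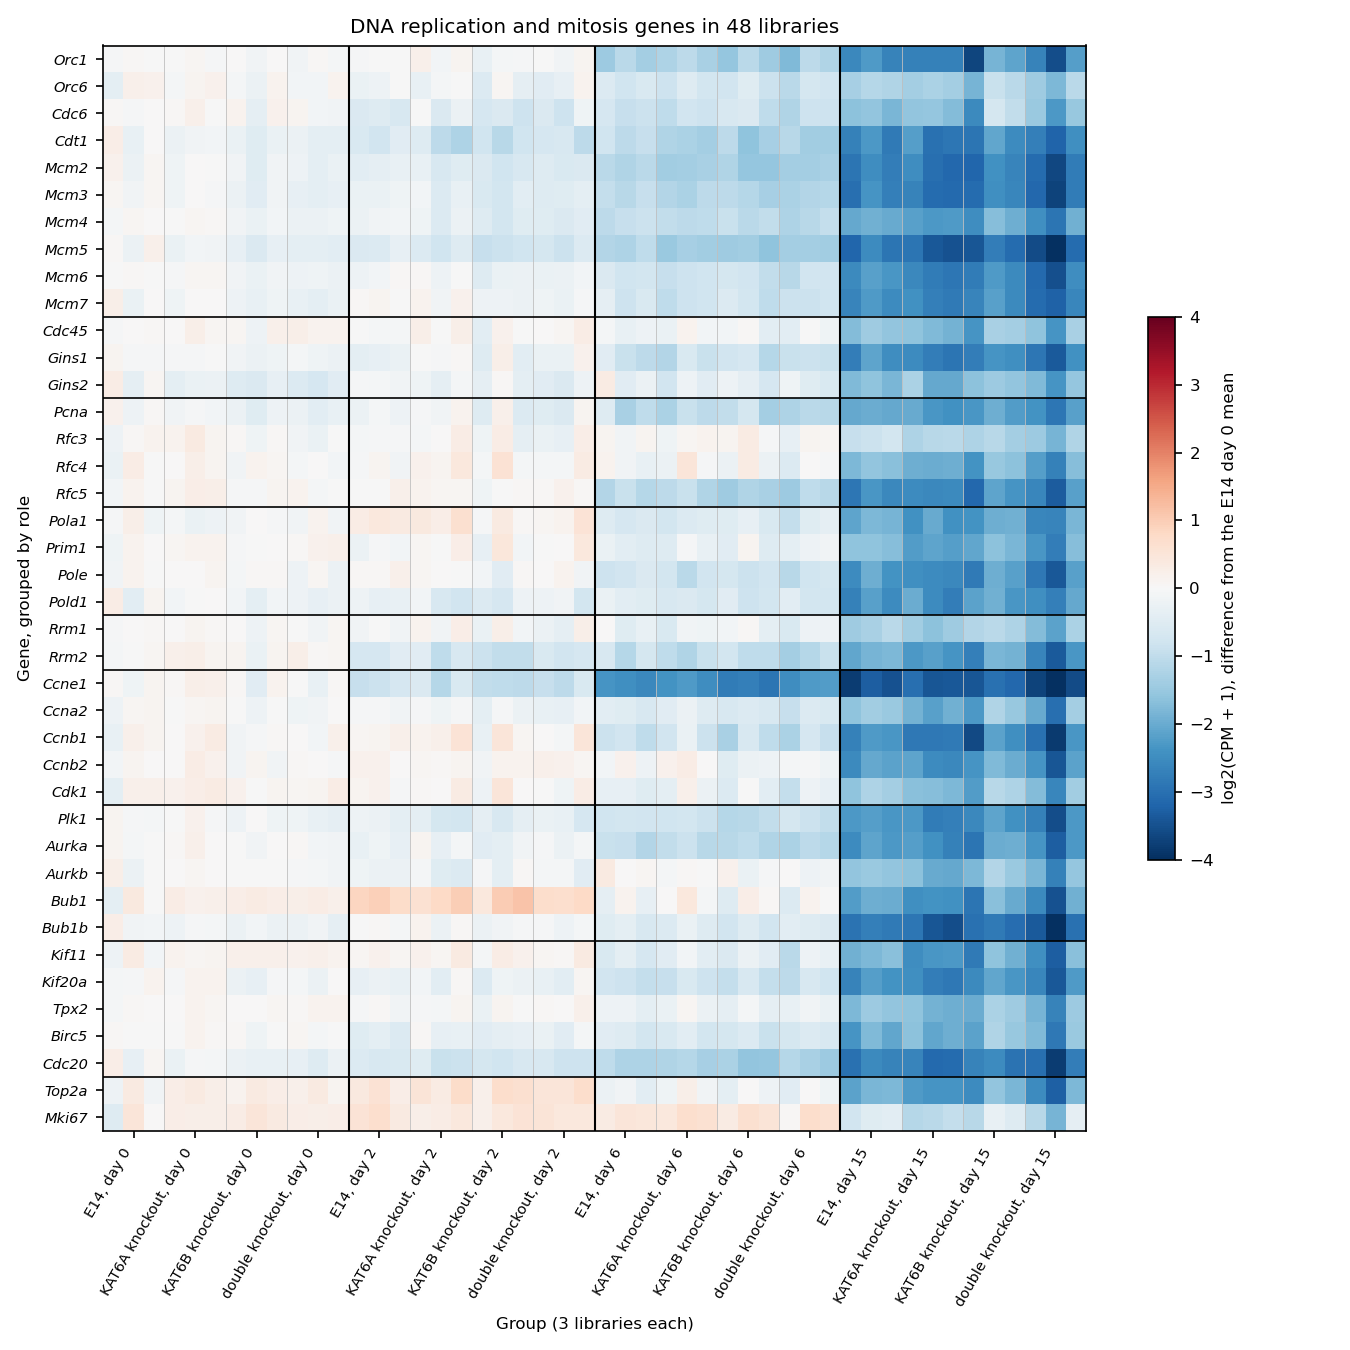
Colour shows each gene's log2(CPM + 1) in every library minus its mean in the E14 day 0 libraries, with genes in rows by role and the 3 libraries of each group side by side. Days 0 and 2 are mostly pale, day 6 is light blue for many genes, and day 15 is blue in every genotype, with 40 of 40 group means in E14 lowest at day 15.

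Depth differed among the libraries, and the spread between replicates was widest at day 15. Totals ran from 22.5 to 72.2 M (mega counts) per library, and edgeR's biological coefficient of variation within a day was 19.3%, 21.0%, 24.6% and 37.8% at days 0, 2, 6 and 15. Kat6a was 61.1 to 126 CPM in the KAT6A knockout and 74.1 to 128 CPM in the double knockout, against 121 to 217 CPM in E14, and on each day the groups stood apart. In the KAT6A knockout its edgeR adjusted p was under 0.05 at day 2 only (0.0330). In the double knockout that was so at days 2 and 15 (0.0460 and 0.0275). Kat6b stood apart from E14 in the KAT6B knockout at days 0, 2 and 6 (log2 differences of -0.71, -0.75 and -0.44) but overlapped it at day 15 (-0.06). The edgeR adjusted p was 0.140, 0.621 and 0.251 at days 0, 2 and 6, none of them under 0.05. In the double knockout Kat6b stood apart at day 0 (-0.64, edgeR adjusted p = 0.0422) and overlapped E14 at days 2, 6 and 15 (-0.20, -0.27 and -0.09), so the label of those libraries rests on Kat6a after day 0. The sources used here do not give the deleted parts, so whole-gene counts check these labels only in part. Summed stem cell markers fell from 2310 to 3660 CPM across the day 0 libraries to 256 to 515 CPM at day 15. Klf4 alone was 127 to 430 CPM across the day 15 libraries, and none of the other stem cell markers exceeded 68.0 CPM (Sox2). Pou5f1 and Nanog reached at most 45.8 and 24.6 CPM. Summed markers of postmitotic neurons at day 15 ran from 65.6 to 2528 CPM, so the cultures compared below differed widely in neuronal RNA.

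Between day 0 and day 15 of the E14 course, all 40 genes were called lower (edgeR quasi-likelihood test, adjusted p under 0.05), while 33.2% of all genes tested were called lower. All 40 had passed the filter on low counts in this and every other comparison. Their median log2 change was -2.06, beside 0.08 for all genes, and their standard errors ran from 0.10 to 0.22. The median gene kept 23.3% of its day 0 level. The genes did not fall evenly: Ccne1 kept 8.40% and Mki67 kept 65.7%.

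Origin licensing genes fell far, with a median log2 change of -2.48 over 10 genes. Mcm5, on chromosome 8 (GRCm39, 75836197 to 75855067, plus strand), was 586, 475 and 645 CPM at day 0 and 61.7, 98.6 and 73.3 CPM at day 15. It is the largest fall of the group, with a log2 change of -2.83 ± 0.18 (SE, n = 3 libraries a group, edgeR adjusted p = 1.78e-08). Orc6, an origin recognition subunit, changed least of the group, by -1.23 ± 0.16 (adjusted p = 8.85e-06). It was 51.8, 79.6 and 77.7 CPM at day 0 and 26.8, 30.7 and 29.1 CPM at day 15, without overlap. Orc6 overlaps Vps35 on the opposite strand by 171 bases, and the part of Vps35 reads in its counts was not tested.

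Of the 3 genes that activate the helicase, Gins1 fell most. It was 42.5, 38.2 and 38.1 CPM at day 0 and 4.91, 8.44 and 6.20 CPM at day 15, a log2 change of -2.56 ± 0.22 (edgeR adjusted p = 1.65e-07). Cdc45 fell least of the 3, from 48.6, 51.1 and 51.7 CPM to 14.5, 18.4 and 16.3 CPM, by 1.58 on the log2 scale. For both genes the day 0 and day 15 groups stood clear of each other. Cdc45 overlaps Ufd1 on the opposite strand by 209 bases, and the part of Ufd1 reads in its counts was not tested.

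Among the sliding clamp PCNA and the clamp loader subunits, the members parted. Rfc5 was 171, 204 and 183 CPM at day 0 and 24.0, 36.3 and 30.5 CPM at day 15, a log2 change of -2.57 ± 0.16 (edgeR adjusted p = 1.32e-08). Rfc3, a subunit of the same loader, was 40.7, 48.6 and 51.5 CPM at day 0 and 24.3, 25.2 and 27.6 CPM at day 15, a log2 change of -0.83 ± 0.13 (adjusted p = 5.58e-05). Rfc3 therefore kept 54.7% of its day 0 level where Rfc5 kept 16.3%.

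The polymerase and primase genes lay closer together. Pold1, the catalytic subunit of the lagging-strand polymerase delta, fell from 213, 129 and 185 CPM to 25.4, 37.1 and 29.1 CPM, a log2 change of -2.48 ± 0.19 (edgeR adjusted p = 6.91e-08). Prim1, which makes the RNA primers, fell from 55.0, 68.8 and 63.1 CPM to 19.5, 19.5 and 18.4 CPM, a change of -1.66 ± 0.12. Of the 2 subunits of ribonucleotide reductase, which supplies deoxynucleotides, Rrm2 fell from 213, 222 and 234 CPM to 51.9, 61.3 and 63.6 CPM (-1.88 ± 0.15). Rrm1 fell less, from 247, 259 and 265 CPM to 95.5, 104 and 122 CPM (-1.22 ± 0.14). RRM2 is the subunit that cycling cells make in S phase, and RRM1 is longer lived.

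Cyclin E1, which drives entry into S phase, had the largest fall of the 40. Ccne1, on chromosome 7 (37797409 to 37806959, minus strand), was 279.8, 240 and 293 CPM at day 0 and 18.5, 26.3 and 23.4 CPM at day 15, a log2 change of -3.53 ± 0.16 (edgeR adjusted p = 3.00e-09). Cdk1, the kinase that starts mitosis, fell least in the group of cyclins and Cdk1, by 1.39 on the log2 scale. It was 99.4, 151 and 151 CPM at day 0 and 42.6, 55.4 and 50.4 CPM at day 15, again without overlap.

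In the mitotic kinases the largest fall was in Bub1b, a spindle checkpoint gene, which went from 368, 275 and 283 CPM to 38.9, 45.1 and 42.2 CPM (-2.84 ± 0.14, edgeR adjusted p = 4.04e-09). Aurkb, the kinase of the chromosomal passenger complex, fell least of the group (-1.54 ± 0.14), from 139, 100.3 and 115 CPM to 39.0, 41.2 and 38.3 CPM. Among spindle and anaphase genes, Cdc20, which activates the anaphase-promoting complex, fell from 428, 288 and 376 CPM to 44.5, 60.6 and 55.6 CPM (-2.72 ± 0.17). Tpx2, a spindle assembly factor, fell least there (-1.58 ± 0.12). In each of these genes every day 15 library lay below every day 0 library.

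Top2a and Mki67 differed from each other. Top2a was 976, 1452 and 1024 CPM at day 0 and 255, 319 and 328 CPM at day 15, a log2 change of -1.89 ± 0.17 (edgeR adjusted p = 2.40e-07). Mki67, which encodes the Ki-67 proliferation marker (chromosome 7, 135291513 to 135318090, minus strand), was 311, 613 and 451 CPM at day 0 and 260, 312 and 331 CPM at day 15. Its groups overlapped, because the first day 0 library was as low as the day 15 libraries. Its log2 change was -0.56 ± 0.19 (adjusted p = 0.0168), and the call was lost without E14 day 0 replicate 2 (adjusted p = 0.115) or without E14 day 15 replicate 1 (adjusted p = 0.0946).

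**Figure D2:**
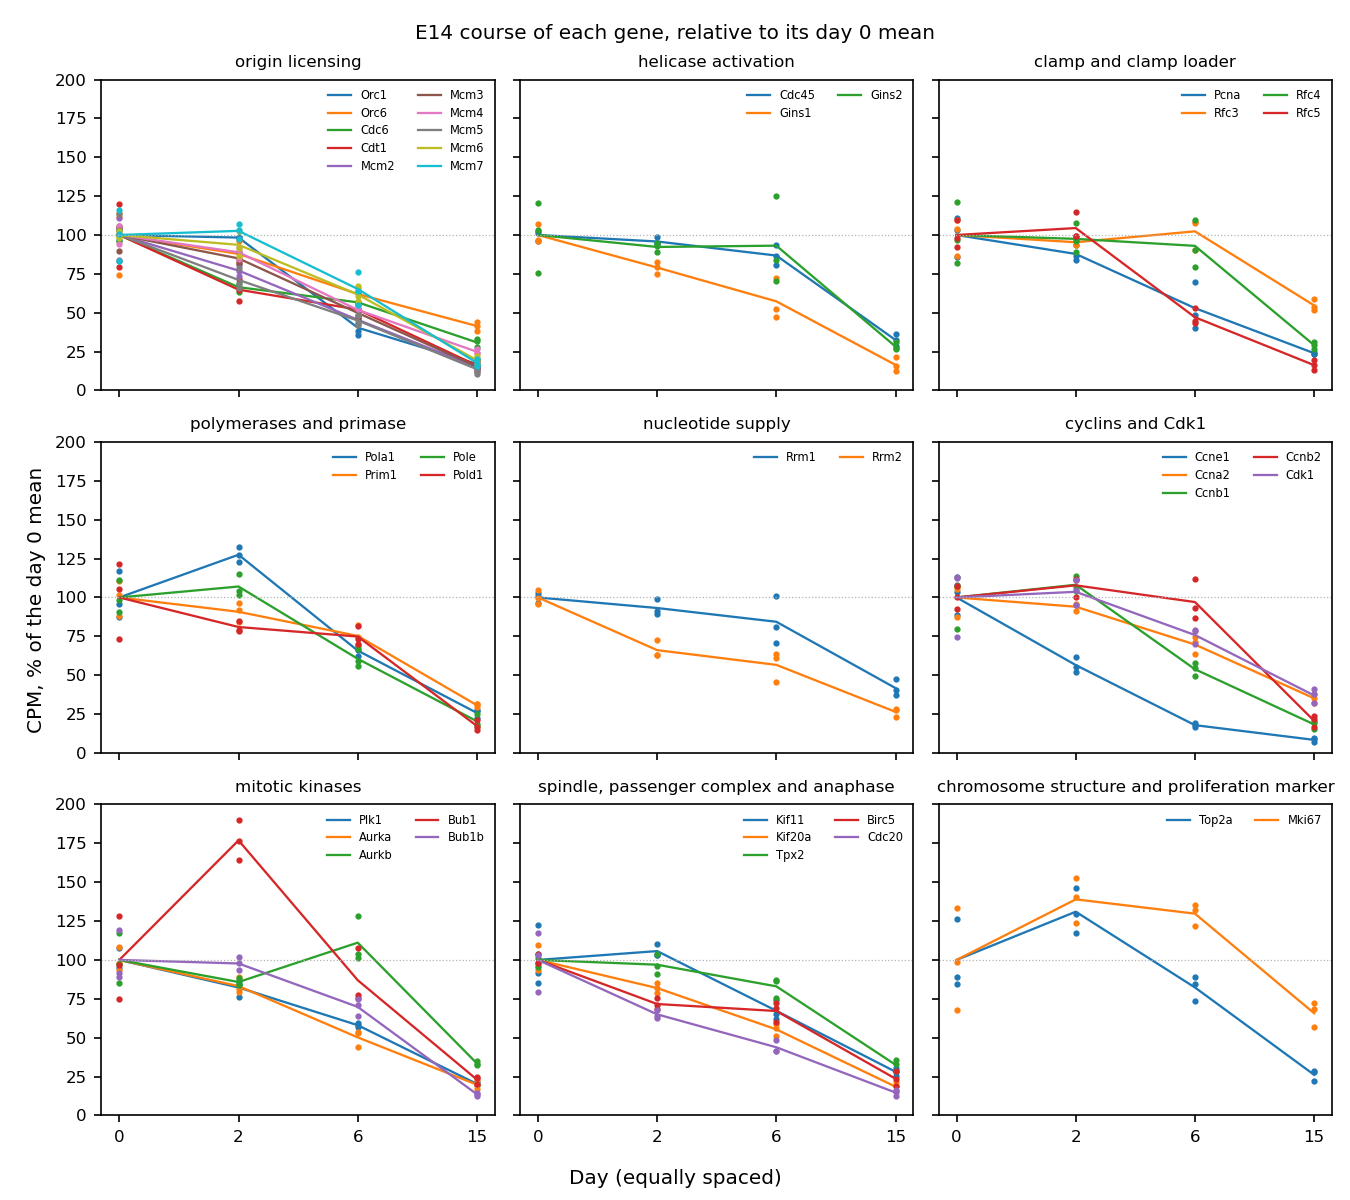
Each panel holds the genes of a role in E14, with lines for group means and points for the 3 libraries, as a percentage of that gene's day 0 mean. Ccne1 drops at every step to 8.40%, while Mki67 stays above its day 0 mean until day 6 and ends at 65.7%.

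The first step, from day 0 to day 2, moved few of these genes. Ccne1, Cdc6, Rrm2, Cdc20, Cdt1 and Birc5 were called lower, 6 of 40, where 12.1% of all genes were called lower. Bub1, a spindle checkpoint kinase, was the 1 gene called higher, where 9.50% of all genes were. The median log2 change of the 40 was -0.11, beside -0.02 for all genes.

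Ccne1 was already at 142, 150 and 168 CPM at day 2, a log2 change of -0.83 ± 0.14 (edgeR adjusted p = 0.00201). Cdc6 went from 141, 132 and 138 CPM to 90.8, 94.9 and 86.9 CPM (-0.60 ± 0.11, adjusted p = 0.00295). Neither gene had overlapping groups. Rrm2 changed by -0.60, Cdc20 by -0.63, Cdt1 (the licensing factor) by -0.63 and Birc5 (survivin, a passenger complex subunit) by -0.49, with adjusted p from 0.00955 to 0.0286. Bub1 rose from 99.3, 170 and 128 CPM to 234, 252 and 218 CPM (0.82 ± 0.18, adjusted p = 0.00733). With 1 library left out at a time, 2 to 9 genes were called lower and 1 to 4 higher. The 9 and the 4 came without E14 day 0 replicate 2 (14.5% of all genes lower and 11.4% higher), when Pola1, Top2a and Mki67 were also called higher (log2 changes of 0.47, 0.58 and 0.73). The Birc5 call was lost in 5 of these 6 fits, that of Cdt1 in 4, Cdc20 in 3 and Rrm2 in 2 (adjusted p from 0.0512 to 0.0951), while Ccne1 and Cdc6 were called in each. With all 48 libraries in 1 fit, Cdc6 and Birc5 were no longer called (adjusted p = 0.0871 and 0.0884). That left 4 lower, beside 2608 of all 22626 genes. Among the fits with 1 library left out, the 2 came without E14 day 2 replicate 2. In those fits 3 were called lower without E14 day 0 replicate 1, E14 day 0 replicate 3 or E14 day 2 replicate 1.

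From day 2 to day 6 the fall became broad. Of the 40 genes, 24 were called lower (19.6% of all genes were) and Aurkb was called higher (22.1% of all genes were), with a median log2 change of -0.46 beside 0.04 for all genes. Licensing genes made up 8 of the 24, and no gene of helicase activation or nucleotide supply was among them. With 1 library left out, 19 to 23 genes were called lower. Cdk1 was called in none of these fits, and Orc6 (licensing) only without E14 day 2 replicate 1. Gins1 (helicase activation) was called lower without E14 day 6 replicate 1 (-0.60, edgeR adjusted p = 0.0401). Ccne1 fell again, to 51.9, 48.8 and 44.4 CPM (-1.62 ± 0.15, edgeR adjusted p = 2.50e-06). Orc1, the largest origin recognition subunit, fell from 92.0, 93.4 and 93.0 CPM, hardly different from day 0, to 33.7, 44.6 and 36.0 CPM (-1.24 ± 0.14, adjusted p = 1.21e-05). Cdc6, which had been called lower by day 2, was 85.7, 71.7 and 75.2 CPM at day 6. Rfc5 changed by -1.11, Mcm4 by -0.74, Pola1 (the priming polymerase) by -0.91 and Ccnb1 (cyclin B1) by -0.97. Aurkb rose from 105, 99.4 and 100.1 CPM to 152, 119 and 123 CPM (0.41 ± 0.14, adjusted p = 0.0252), and that call was lost without any of the 3 day 2 libraries or without E14 day 6 replicate 1 (adjusted p from 0.0574 to 0.0974).

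From day 6 to day 15 all 40 genes were called lower, where 27.3% of all genes were. The median log2 change was -1.52, beside -0.05 for all genes, and the largest adjusted p was 0.00606 (edgeR). Bub1b fell from 219, 231 and 197 CPM at day 6 to its day 15 level, a log2 change of -2.35 ± 0.14 (adjusted p = 2.86e-08). Ccnb2 (cyclin B2), still at 94.0, 113 and 87.4 CPM at day 6 against 93.6, 109 and 101 CPM at day 0, then fell to 16.6, 23.9 and 22.1 CPM (-2.23 ± 0.15, adjusted p = 8.57e-08). Plk1, a kinase of mitotic entry, changed by -1.52, Mcm6 by -1.66, Aurkb by -1.73 and Kif20a (a kinesin of the central spindle) by -1.58. The group mean was highest at day 0 for 27 genes, at day 2 for 11 and at day 6 for 2.

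The other cell cycle genes, from lists that hold no member, moved mostly the same way in E14 from day 0 to day 15. Of 32 other replication genes, 30 were called lower and 1 higher, with a median log2 change of -1.74. The largest falls were in Mcm10 (-2.92), Uhrf1 (-2.63), which helps to copy DNA methylation, and Rpa2 (-2.38), a subunit that coats single-stranded DNA. The 1 called higher was Rrm2b (0.69), the reductase subunit made outside S phase. All 30 other mitosis genes were called lower, with a median of -1.68, led by Espl1 (separase, -2.69), Spc24 (-2.41) and Kif2c (-2.38).

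Of 28 cell cycle regulators, 18 were called lower and 6 higher, where 36.5% of all genes were called higher. Mybl2, a partner of the MuvB complex, changed by -3.64, Cdc25a by -1.96 and Ccnd1 by -1.95. The 3 largest rises were in Ccnd2 (cyclin D2, 3.64) and in the kinase inhibitors Cdkn2c (2.59) and Cdkn1a (p21, 2.41). Cyclins D1 and D2 therefore moved in opposite directions over the course (edgeR adjusted p = 2.86e-04 and 5.49e-07).

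The knockout lines lost these RNAs over the course as well. From day 0 to day 15, all 40 genes were called lower in the KAT6A knockout (32.9% of all genes), in the KAT6B knockout (28.2%) and in the double knockout (34.1%). Their median log2 changes were -2.46, -2.00 and -2.52. Ccne1 had the largest fall of the 40 in every genotype, with log2 changes of -3.43 ± 0.17, -3.02 ± 0.18 and -3.78 ± 0.18 in the 3 knockouts (edgeR adjusted p from 3.58e-09 to 2.42e-07). The median gene kept 17.5%, 22.9% and 17.4% of its day 0 level in the KAT6A, KAT6B and double knockout.

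The other genes with the smallest p-values in these courses came from licensing, DNA synthesis and mitosis. In the KAT6A knockout, Rfc5 changed by -2.73, Mcm6 by -2.75, Pole (the leading-strand polymerase) by -2.54, Orc1 by -2.73 and Mcm5 by -3.05. In the KAT6B knockout, Bub1b changed by -2.69, Cdc20 by -2.32, Mcm5 by -2.55, Mcm6 by -2.22 and Plk1 by -2.14. In the double knockout, Mcm7 changed by -2.66, Mcm2 by -2.86, Mcm3 by -2.83, Bub1b by -3.22 and Cdt1 by -2.45.

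Whether the day 0 to 15 change differed between a knockout and E14 was tested as an interaction, and none of the 40 genes was called in any knockout. Of all genes, 0% were called for the KAT6A knockout, 0.0436% for the KAT6B knockout and 2.51% for the double knockout. At an unadjusted p under 0.05 there were 12, 2 and 2 of the 40, where 9.76%, 14.5% and 20.9% of all genes passed. DESeq2 called 2, 0 and 0 of the 40, beside 0.617%, 3.63% and 8.09% of all genes. The 2 were Prim1 and Rrm2, which edgeR put at -0.68 ± 0.16 and -0.56 ± 0.15 for the KAT6A knockout (adjusted p = 0.332 and 0.370). For the double knockout, Rrm2 differed by -0.95 ± 0.29 (adjusted p = 0.0982) and Prim1 by -0.72 ± 0.31 (adjusted p = 0.213). Without double knockout day 15 replicate 3, edgeR called 3 genes lower there, Prim1, Rrm2 and Kif11 (adjusted p = 0.0264, 0.0264 and 0.0456), beside 2.23% of all genes. For the KAT6B knockout the smallest p-values were those of Gins2 (0.59 ± 0.24, adjusted p = 0.300) and Rfc3 (-0.48 ± 0.20, adjusted p = 0.320). Median differences over the 40 were -0.29, 0.00 and -0.31, beside -0.01, -0.07 and -0.02 for all genes.

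On each day the knockouts were also compared with E14. All 3 share the same E14 libraries, so their changes are not independent of each other. Of the 12 comparisons, a gene of the 40 was called in 1.

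At day 0, no gene of the 40 was called in the KAT6A knockout (0% of all genes were) or the KAT6B knockout (0.0106%). Gins2 alone was called in the double knockout (2.09%). At an unadjusted p under 0.05 there were 2, 11 and 13 of the 40, where 4.75%, 11.8% and 18.2% of all genes passed. DESeq2 called 0, 1 and 4 of the 40, beside 0.0370%, 1.06% and 5.82% of all genes. The 1 was Mcm5 and the 4 were Mcm3, Mcm4, Mcm5 and Gins2, all lower.

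Gins2, a GINS subunit on chromosome 8 (121305372 to 121316043, minus strand), was 67.0, 42.1 and 57.3 CPM in E14 at day 0. It was 37.3, 34.0 and 39.9 CPM in the double knockout, without overlap, a log2 difference of -0.61 ± 0.15 (edgeR adjusted p = 0.0463). It was 41.6, 45.1 and 46.3 CPM in the KAT6A knockout (-0.38 ± 0.15, adjusted p = 0.930) and 38.2, 36.4 and 43.1 CPM in the KAT6B knockout (-0.53 ± 0.15, adjusted p = 0.251). The call in the double knockout was lost without E14 day 0 replicate 1, E14 day 0 replicate 3, or any of the double knockout libraries (adjusted p from 0.0927 to 0.164). Gins2 overlaps Gse1 on the opposite strand by 2758 bases, and the strand setting of the counting is not given in the sources used here.

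Mcm5 had the smallest p in the KAT6B knockout at day 0. It was 586, 475 and 645 CPM in E14 against 450, 376 and 453 CPM, a log2 difference of -0.44 ± 0.11 (edgeR adjusted p = 0.192). In the double knockout it was 427, 427 and 425 CPM, and in the KAT6A knockout 472, 524 and 510 CPM (-0.24 ± 0.11, adjusted p = 0.930). E14 day 0 replicate 2 was the E14 library nearest to the knockouts here. Without it, 9 genes were called lower and 4 higher in both the KAT6B and the double knockout. Of all genes, 3.38% were then called lower and 2.61% higher in the KAT6B knockout, and 5.55% lower and 4.44% higher in the double knockout, so calls rose outside the 40 as well. In both, the 9 were Cdt1, Mcm2, Mcm3, Mcm5, Mcm7, Gins2, Pcna, Pold1 and Cdc20, and the 4 were Bub1, Kif11, Top2a and Mki67.

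The E14 day 0 libraries thus differed among themselves in 2 sets of these genes. Replicate 1, the library with the lowest total count of the 48 (22.5 M), was the lowest of the 12 day 0 libraries for 11 genes and the highest for 11 others. Mki67 was 311, 613 and 451 CPM in E14 replicates 1, 2 and 3, against 517 to 623 CPM in the 9 knockout libraries. Bub1 was 99.3, 170 and 128 CPM and Bub1b 368, 275 and 283 CPM in the same 3 libraries. The part that depth took in this was not tested.

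At day 2, none of the 40 genes was called in the KAT6A knockout (0.0102% of all genes), the KAT6B knockout (0%) or the double knockout (1.12%). Counts at an unadjusted p under 0.05 were 2, 7 and 2, where 10.3%, 4.06% and 12.7% of all genes passed. DESeq2 called 0 of the 40 in each, beside 0.138%, 0.112% and 3.36% of all genes. The smallest p-values were those of Mcm4 in the KAT6B knockout (-0.41 ± 0.12, edgeR adjusted p = 0.955) and in the double knockout (-0.36 ± 0.12, adjusted p = 0.178). Mcm4 was 275, 294 and 302 CPM in E14, and lower, without overlap, at 226, 198 and 232 CPM in the KAT6B knockout and 232, 217 and 241 CPM in the double knockout. Its KAT6A knockout libraries, at 293, 222 and 275 CPM, reached into the E14 range. Also lowest in p were Plk1 (-0.35) and Birc5 (0.28) in the KAT6A knockout, Mcm5 in the KAT6B knockout (-0.39) and Gins2 in the double knockout (-0.34), with adjusted p from 0.287 to 0.981.

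At day 6, none was called in the KAT6A knockout (0%), the KAT6B knockout (0.0292%) or the double knockout (0.0682%). Counts at an unadjusted p under 0.05 were 3, 6 and 3, near the 5.30%, 13.0% and 8.12% of all genes that passed. DESeq2 called 0 of the 40 in each, beside 0.0146%, 2.58% and 1.16% of all genes. Mcm5 was among the 2 smallest p-values in all 3 comparisons, with log2 differences of -0.28, -0.33 and -0.26 (edgeR adjusted p = 0.809, 0.221 and 0.526). It was 252, 240 and 276 CPM in E14, and the 9 knockout libraries lay between 183 and 224 CPM, below all of them. Cdt1 differed by -0.37 in the KAT6A knockout and by -0.40 in the double knockout, and Ccne1 by -0.37 in the KAT6B knockout (adjusted p = 0.809, 0.445 and 0.207).

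At day 15, none was called in the KAT6A knockout (0%), the KAT6B knockout (0.0742%) or the double knockout (3.18%). Counts at an unadjusted p under 0.05 were 1, 1 and 9, none of them a larger share than the 11.4%, 20.0% and 24.6% of all genes that passed. DESeq2 called 0, 0 and 2 of the 40, beside 1.62%, 9.11% and 13.5% of all genes. The medians of the 40 log2 differences were -0.26, -0.03 and -0.44, beside 0.01, 0.05 and 0.01 for all genes. In the double knockout 38 of the 40 differences were below 0, and standard errors over the 40 ran from 0.17 to 0.44.

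Rfc3 had the smallest p in the KAT6B and double knockouts at day 15. It was 24.3, 25.2 and 27.6 CPM in E14. Its libraries gave 19.3, 21.3 and 17.6 CPM in the KAT6B knockout (-0.42 ± 0.17, edgeR adjusted p = 0.213) and 16.5, 12.2 and 19.9 CPM in the double knockout (-0.68 ± 0.17, adjusted p = 0.0589). Every knockout library lay below E14, those of the KAT6A knockout at 19.3, 21.0 and 21.7 CPM included. Rrm2 was 51.9, 61.3 and 63.6 CPM in E14 and 34.9, 20.8 and 43.7 CPM in the double knockout, without overlap (-0.85 ± 0.27, adjusted p = 0.101). Rfc3 and Rrm2 were the 2 genes that DESeq2 called. With all 48 libraries in 1 fit, edgeR called 9 genes lower in the double knockout, namely Mcm3, Mcm5, Mcm6, Mcm7, Rfc3, Prim1, Rrm2, Plk1 and Bub1b. In that fit 9.22% of all genes were called lower.

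The remaining smallest p-values at day 15 were those of Prim1 in the KAT6A knockout and Ccne1 in the KAT6B knockout. Prim1 was 19.5, 19.5 and 18.4 CPM in E14 and 12.5, 13.6 and 12.7 CPM in the KAT6A knockout (-0.56 ± 0.24, edgeR adjusted p = 0.416). In the KAT6B knockout Ccne1 was 24.4, 33.2 and 29.7 CPM, overlapping its 18.5, 26.3 and 23.4 CPM in E14 (0.34 ± 0.20, adjusted p = 0.347). Without KAT6B knockout day 15 replicate 1, Cdc6 was called higher there (0.81, adjusted p = 0.0494), as were 4.28% of all genes.

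**Figure D3:**
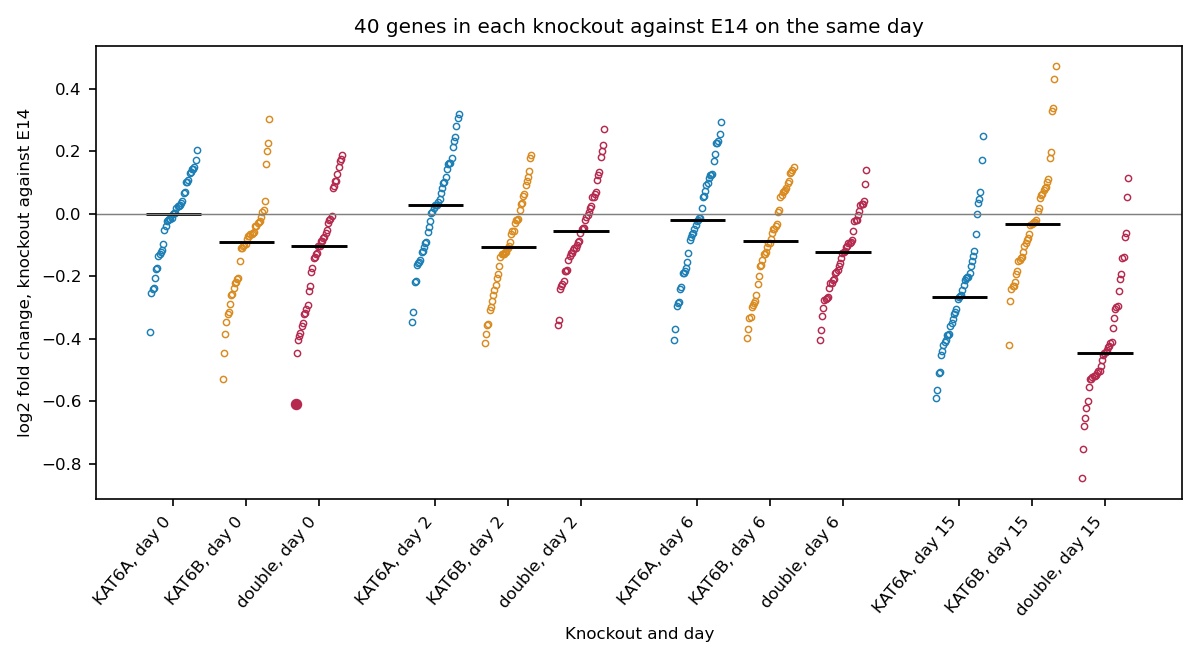
Each circle is the log2 fold change of a gene in a knockout against E14 on the same day, sorted within a column, with a black bar at the median and a filled circle where edgeR's adjusted p was under 0.05. The filled circle is Gins2 in the double knockout at day 0 (-0.61), and the lowest medians are those of the KAT6A (-0.26) and double (-0.44) knockouts at day 15.

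The day 15 libraries of a knockout genotype differed among themselves. The summed level of the 40 genes was 2130, 1845 and 1831 CPM in the KAT6A knockout, 1741, 2917 and 2454 CPM in the KAT6B knockout, and 1753, 1096 and 2486 CPM in the double knockout. Double knockout replicate 2 was the lowest of the 12 libraries for 35 of the 40 genes, and KAT6B knockout replicate 2 was the highest for 27. In double knockout replicate 2, Bub1b was 15.8 CPM and Top2a 116 CPM, against 37.9 and 325 CPM in replicate 3 of the same group.

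Markers of other cell types moved beside these sums. Postmitotic neuron markers (8 genes) summed to 2528, 1407 and 1647 CPM in E14 at day 15, 333, 1056 and 1338 CPM in the KAT6A knockout, 907, 65.6 and 400.1 CPM in the KAT6B knockout, and 858, 836 and 146 CPM in the double knockout. In E14, the KAT6A knockout and the KAT6B knockout the 3 libraries ranked by neuron markers in exactly the reverse order of their replication and mitosis sum. Few orders are possible with 3 libraries, and this order was not tested. Between genotypes it did not hold: E14 had the highest neuron marker sums, while the lowest sum of the 40 genes was in the double knockout. In the double knockout replicate 3, the lowest for neuron markers, was the highest of the 3 for 39 of the 40 genes, but replicates 1 and 2 broke the order. The library lowest for neuron markers was the highest of its 3 for 34 genes in E14, 28 in the KAT6A knockout and 38 in the KAT6B knockout.

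The other lineages are given by their day 15 sums. Mesenchyme markers (7 genes) summed to 1631 to 4288 CPM in E14 and 2464 to 6827 CPM in the KAT6A knockout. They were 17933, 5154 and 4499 CPM in the KAT6B knockout and 7336, 8600 and 8004 CPM in the double knockout. Endoderm markers (7 genes) summed to 622 to 973 CPM in E14, 810 to 1496 CPM in the KAT6A knockout, 312 to 1781 CPM in the KAT6B knockout and 1320 to 1637 CPM in the double knockout. Within this list Afp and Ttr reached at most 1.09 and 9.03 CPM at day 15, while Gata4 and Gata6 reached 651 and 526 CPM. Glial markers (6 genes) were 129 to 303 CPM in E14 and 6.01 to 73.6 CPM in the 9 knockout libraries. Gfap and Aldh1l1 reached 188 and 101 CPM at day 15, while Aqp4, S100b, Olig2 and Sox10 reached at most 1.42, 0.28, 7.70 and 15.2 CPM. Aqp4, S100b and Olig2 had no count in 2, 5 and 1 of the 12 day 15 libraries. Neural progenitor markers (7 genes) were 1886 to 2158 CPM in E14, 1575 to 2117 CPM in the KAT6A knockout, 1061 to 1795 CPM in the KAT6B knockout and 856 to 1336 CPM in the double knockout. Vim alone was 711 to 1503 CPM across the day 15 libraries. Nes, Fabp7 and Notch1 reached 332, 353 and 296 CPM, and Sox1, Pax6 and Hes5 only 25.8, 24.4 and 31.2 CPM. The progenitor sum therefore rests largely on Vim and does not measure dividing progenitors. The part of these cell types in the day 15 differences of the 40 genes was not tested.

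**Figure D4:**
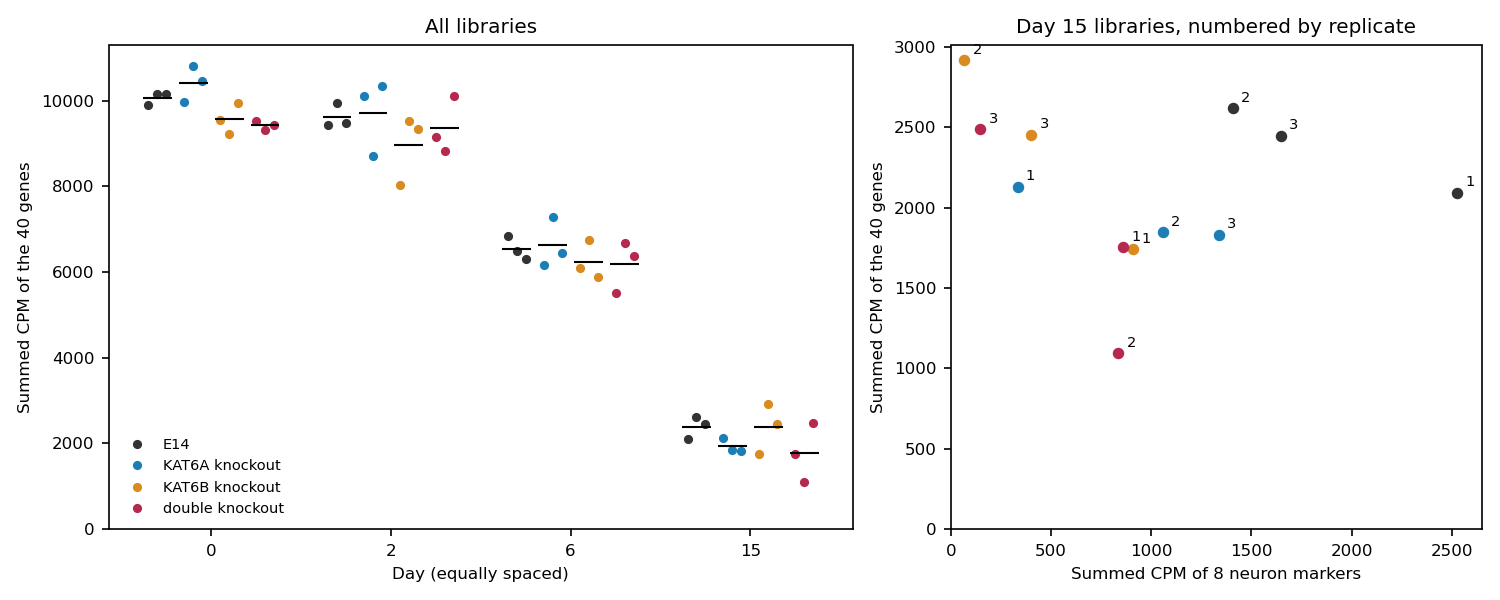
The left panel shows the summed CPM of the 40 genes in each library by day, with bars at group means, and the right panel sets the day 15 sums against the summed CPM of 8 neuron markers, numbered by replicate. At day 15 the sums run from 1096 to 2917 CPM, and the KAT6B knockout library with 65.6 CPM of neuron markers has the highest.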

How the data were processed

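RNA was depleted of rRNA, made into directional libraries and sequenced as 150 bp paired reads, per the labels' protocols. The authors deposited raw read counts per gene, from HISAT2 alignments to GRCm39 per the submitters' processing notes. Which program counted the reads, with what strand setting and which gene annotation, is not given in the sources used here. Of 36983 rows, 48 that repeat an identifier were left out. Tests used edgeR 4.0.16 on R 4.3.3 (filterByExpr with a minimum count of 10 and minimum total of 15, TMM scaling, quasi-likelihood test, Benjamini-Hochberg adjustment over all genes tested, calls at adjusted p under 0.05). Each course was fitted on the 12 libraries of its genotype, each day on its 12 libraries, and each interaction on the 12 day 0 and 15 libraries of E14 and the knockout, which gave 22 comparisons. CPM values use TMM factors over all 48 libraries, and they are compared within a gene only, since they are not scaled by length. The functions were tested on simulated data. In the E14 day 0 to 15 comparison, the text gives library values for the genes with the largest and smallest change of each role. In the others it names up to 6 called genes per direction, or the 2 with the smallest p, and from 3 lists of other cell cycle genes the 3 largest changes per direction. Further names, such as those an alternative adds, were chosen after their values were seen. The genes and lists were chosen with earlier results of these data known. Of the 40 genes, 16 overlap another gene of the table, 14 of them on the opposite strand only. For Orc6, Cdc45, Gins2 and Rfc4, the overlapping gene (Vps35, Ufd1, Gse1 and Eif4a2) had the higher total count. These totals were 417%, 112%, 425% and 1088% of those of the 4 genes. Alternatives were RLE size factors, no filter, DESeq2 1.42.0, all 48 libraries in 1 fit, a replicate block, leaving out each library, and a promoter window of 250 bases.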

Additional observations from a re-analysis of the deposited data

How the results depend on the processing

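The calls of all 40 genes as lower from day 6 to 15 in E14 and from day 0 to 15 in the 3 knockouts were the same under every alternative and with any library left out. From day 0 to 15 in E14, 39 to 40 were called lower with 1 library left out and 40 under the others. Over all counts of called genes, 209 of 220 values from other alternatives and 280 of 300 with a library left out were scored the same. That meant within 1.5 times the main count, or 0 where the main count was 0, as most were. These shares thus rest largely on 0 against 0. Among counts above 0, those of E14 day 0 to 2 moved in 4 of 6 fits with a library left out (lower) and 1 of 6 (higher). The day 2 to 6 count of genes higher moved in 4 of 6, and that of genes lower in the double knockout at day 0 in 6 of 6. No named gene reversed. With 1 library left out, the E14 day 0 to 2 counts were 2 to 9 lower and 1 to 4 higher, and the day 2 to 6 counts were 19 to 23 lower and 0 to 1 higher. Against E14 at day 0, the KAT6B knockout had 0 to 9 lower and 0 to 4 higher, and the double knockout 0 to 9 lower and 0 to 4 higher. The KAT6B knockout at day 15 had 0 to 1 higher, and the double knockout interaction 0 to 3 lower. DESeq2 called 1 gene lower in the KAT6B knockout at day 0, 4 in the double knockout at day 0 (2 with no filter, 0 with all 48 libraries in 1 fit), 2 in the double knockout at day 15 (9 with all 48 in 1 fit) and 2 in the KAT6A knockout interaction. Of all genes, 232 were called lower in the double knockout at day 0 with no filter, and 12 with all 48 libraries in 1 fit. All 48 libraries in 1 fit called 0 genes higher from day 2 to 6 in E14, beside 4457 of all 22626 genes. That fit called 1 lower in the double knockout interaction, beside 655 of all 22626. The cause of these changes was not tested. Relative log expression factors moved the median of all genes by 0.13 for the KAT6B knockout interaction, and that of the 40 genes from 0.00 to 0.13, so no direction is given there. Replicate numbers are not said to mark an experiment. Of 72 pairs of libraries with the same number on a day, 29 had deviations from their group means that correlated above 0.1 (range -0.472 to 0.478, median 0.07), against 28 of 144 pairs with different numbers (median -0.03). Within a genotype across days, 19 of 72 pairs with the same number and 3 of 144 with different numbers did. Same-numbered libraries thus leaned together, but not in every pair, and the numbers were not taken as pairs. With a replicate block, 3 genes were called higher from day 0 to 2 in E14, where Top2a and Mki67 joined Bub1. Of all 20503 genes, 2247 were called higher in that fit. In the double knockout at day 0 the block called 2 lower, where Mcm5 joined Gins2, beside 253 of all 18935 genes. With only the 250 bases before the start, E2F-type matches were in 8 genes and CHR-type matches in 11, against 11 and 14 in the longer window. The day 15 comparisons have the widest spread, with standard errors of 0.17 to 0.44 (log2). In the double knockout, Rfc3 and Rrm2 differed from E14 by well over their standard errors and were still not called. The lack of calls at day 15 therefore does not show that the genes were unchanged.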

Other observations

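Single libraries stood out on the earlier days as well, given here as values. At day 0, KAT6B knockout replicate 2 was the lowest of the 12 libraries for 17 of the 40 genes and KAT6A knockout replicate 2 was the highest for 16. At day 2, KAT6B knockout replicate 1 was the lowest for 21 and KAT6A knockout replicate 1 the highest for 11. At day 6, double knockout replicate 1 was the lowest for 19, while KAT6A knockout replicate 2 was the highest for 16. At day 15, 40 of the 40 genes lay below their group mean in double knockout replicate 2 and none did in replicate 3 of the same group.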
